A study of Mus musculus with 6 samples.

Results

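Methyl group metabolism in the liver was described through 10 genes, *Inmt*, *Nnmt*, *Gnmt*, *Pemt*, *Mat1a*, *Mat2a*, *Ahcy*, *Bhmt*, *Bhmt2* and *Cbs*, which are 10 of the 18138 gene symbols and had 16 of the 25697 probes of a mouse bead array. All probes that the array annotation gives to these symbols were taken. Of the 16 probes, 13 passed the filter on dim signals, detection above the negative control beads on at least 3 of 6 arrays, and they covered all 10 genes. One *Nnmt* probe and 2 *Mat2a* probes were detected on no array (0 of 6) and have no measured difference. The genes were chosen by measured values, the difference between hSRY-ON and hSRY-OFF livers at *Inmt* and at genes of the same metabolism, so their values in that comparison are given as a description. No p-value is printed for them, and where a probe is said to pass the threshold of the fit, nothing is supported by it.

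Cells move methyl groups with S-adenosylmethionine (SAM), which is made from methionine and ATP and donates its methyl group to DNA, RNA, proteins, phospholipids and many small molecules. The product, S-adenosylhomocysteine, inhibits most methyltransferases and is split into adenosine and homocysteine, which is either methylated back to methionine, by folate or by betaine, or passed into the transsulfuration pathway towards cysteine. The liver is the main site of this traffic in mammals.

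The arrays held liver RNA from male pups at postnatal day 6 on the FVB/N background (FVB in the labels), 3 hSRY-ON and 3 hSRY-OFF, in biological triplicate. The hSRY-ON pups carried Signalox-hSRY, a single-copy cassette at the *H11* locus in which the ubiquitous CAG promoter drives DsRed2 until Cre removes it and places FLAG-tagged human *SRY* with IRES-EGFP behind the promoter. Cre came from the oocytes of *Ddx4-Cre* mothers, so recombination took place in the early embryo and the transgene was active throughout the body, and the hSRY-ON pups used for arrays carried no *Ddx4-Cre* themselves. The hSRY-OFF pups were not recombined; the methods describe them as carrying the silent cassette, while controls elsewhere in the study are littermates without it, so the genotype of the control arrays is known only as hSRY-OFF. The responder line has 1 integration site and no second line was arrayed, and the array table holds no probe for the human transgene. Arrays differed little in overall signal, with median raw intensities of 146.9 to 164.7 and 10318 to 10762 detected probes. Of 12 probes for hepatocyte markers, 9 were tested, *Tat* and *Tdo2* were detected on no array (0 of 6) and *Fgb* on 1. The summed normalised intensity of the 9 came mostly from *Apoa1*, *Apoa2* and *Ttr*. It was 118503 to 127471 in hSRY-OFF and 110463 to 126850 in hSRY-ON. Quantile normalization gives every array the same set of values, and *Apoa1* and *Apoa2* lay near its top (mean log2 14.94 to 15.10). A sum led by such probes has little room to differ between groups and says little about hepatocyte content. As given below, 4 of the 9 probes were lower in hSRY-ON.

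Promoters were available in RefSeq (assembly GRCm38.p6, C57BL/6J) for 8 of the 10 genes, and 4 are shown. They include those of the member with the widest separation of the groups and of *Mat2a*, which was higher in hSRY-ON at 1 of its probes. The others are those of the neighbours *Bhmt* and *Bhmt2*. Each line gives the 250 bases before the annotated start, 5′ to 3′ on the gene's own strand, which is the minus strand for all 4. These windows lie at chr6:55174991-55175240 for *Inmt*, chr6:72439557-72439806 for *Mat2a*, chr13:93637759-93638008 for *Bhmt* and chr13:93674303-93674552 for *Bhmt2*. Capitals mark exact matches, on either strand, to TATAAA (the TATA box), AGGTCA (a core motif of nuclear receptors), GGGCGG (the GC box) or CCAAT (a motif of many promoters), a match on the other strand being printed as its reverse complement.
Inmt: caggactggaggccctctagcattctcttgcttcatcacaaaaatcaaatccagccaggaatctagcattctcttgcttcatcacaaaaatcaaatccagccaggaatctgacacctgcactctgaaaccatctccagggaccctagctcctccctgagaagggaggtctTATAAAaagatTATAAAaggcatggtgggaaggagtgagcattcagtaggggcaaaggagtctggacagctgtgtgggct
Mat2a: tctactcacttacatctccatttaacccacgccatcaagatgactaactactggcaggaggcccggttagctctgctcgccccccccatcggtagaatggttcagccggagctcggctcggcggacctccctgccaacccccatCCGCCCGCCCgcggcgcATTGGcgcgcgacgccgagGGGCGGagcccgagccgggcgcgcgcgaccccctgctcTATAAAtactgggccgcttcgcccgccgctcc
Bhmt: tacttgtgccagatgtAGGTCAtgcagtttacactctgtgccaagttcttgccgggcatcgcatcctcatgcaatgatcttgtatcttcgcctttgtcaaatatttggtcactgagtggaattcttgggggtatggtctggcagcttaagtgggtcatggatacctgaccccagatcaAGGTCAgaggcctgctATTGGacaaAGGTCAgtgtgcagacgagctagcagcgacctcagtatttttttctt
Bhmt2: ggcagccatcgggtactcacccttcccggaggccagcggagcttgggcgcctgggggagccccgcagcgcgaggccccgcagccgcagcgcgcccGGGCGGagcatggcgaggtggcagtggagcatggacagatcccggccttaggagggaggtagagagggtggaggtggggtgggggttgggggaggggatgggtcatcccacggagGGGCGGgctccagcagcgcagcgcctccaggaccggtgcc

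The 4 windows differed in kind. That of *Inmt* had 48.0% G and C and 0 CpG dinucleotides, against medians of 52.4% and 6 over the 32851 promoter windows of the table. It held TATAAA 80 and 69 bases before the start, and a stretch of 46 bases that stands directly after itself as an exact copy, the copies beginning 235 and 189 bases before the start. An exact repeat of at least that length was found in 0.374% of all promoter windows (123 entries). The *Mat2a* window had 67.6% G and C, 29 CpG, TATAAA 32 bases before the start and 3 matches to GGGCGG, 2 of which overlap. The *Bhmt* window held AGGTCA 3 times, 234, 72 and 47 bases before the start, at 48.0% G and C, whereas that of *Bhmt2* held none and had 74.0% G and C with 20 CpG. Over all promoters, TATAAA was found in 12.4%, AGGTCA in 14.0%, GGGCGG in 32.7% and CCAAT in 33.8%. Among the 8 genes they were found in 2 (*Inmt* and *Mat2a*), 3 (*Ahcy*, *Bhmt* and *Gnmt*), 4 (*Ahcy*, *Bhmt2*, *Cbs* and *Mat2a*) and 6 (all but *Inmt* and *Bhmt2*), respectively. AACAAT and AACAAAG, motifs of the SRY and SOX family found on either strand in 9.42% and 5.03% of all promoters, had no match in these windows (0 of 8 genes), which speaks only of these letters in these 250 bases. The FVB sequence was not used here.

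The first role is methyl transfer to small molecules and lipids. *Inmt* encodes indolethylamine N-methyltransferase, which methylates tryptamine and related amines as well as sulphur and selenium compounds, and lies at chr6:55170627-55174990. On the log2 scale of normalised intensity, its probe read 12.68, 12.78 and 12.88 in the hSRY-OFF livers and 7.72, 8.44 and 7.41 in the hSRY-ON livers. The groups were far apart, with every hSRY-ON value below every hSRY-OFF value, and the hSRY-ON values were spread more widely. The means were 12.78 ± 0.10 and 7.86 ± 0.53 (SD, n = 3 each), a difference of -4.92 ± 0.25 (SE of the limma fit; 95% interval -5.51 to -4.33), or 30.3-fold lower in hSRY-ON. Of all 10734 tested probes, 7 (0.0652%) lay at least as far below, *Inmt* included. The probe was still detected on all 6 arrays, and the raw intensities were 7500.9, 8279.1 and 7074.2 in hSRY-OFF and 364.3, 465.9 and 268.3 in hSRY-ON, so the gap was present before background correction and normalization.

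*Nnmt* encodes nicotinamide N-methyltransferase, which consumes SAM to methylate nicotinamide. Its tested probe read 5.94, 5.65 and 5.89 in hSRY-OFF and 6.61, 6.50 and 6.71 in hSRY-ON, a difference of 0.78 ± 0.13 (95% interval 0.47 to 1.09) or 1.71-fold. The groups did not overlap, but the probe lay close to background and missed the detection threshold on 1 hSRY-OFF array, replicate 2. This was the opposite direction from *Inmt*, at a signal where the fitted difference is held down by the offset of the background correction.

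*Gnmt* encodes glycine N-methyltransferase, an abundant liver enzyme that uses up excess SAM. One probe read 10.39, 10.18 and 10.98 in hSRY-OFF and 10.41, 10.71 and 10.23 in hSRY-ON, and the other 12.71, 12.63 and 13.36 against 12.76, 13.14 and 12.71. Both sets of values overlapped, and both probes placed hSRY-OFF replicate 3 and hSRY-ON replicate 2 highest in their groups. The differences were -0.06 ± 0.23 (95% interval -0.60 to 0.47) and -0.03 ± 0.22 (-0.56 to 0.49), which leaves room for a shift of about that width in either direction. *Pemt* encodes the enzyme that methylates phosphatidylethanolamine to phosphatidylcholine, one of the main uses of SAM in the liver. It read 13.61, 13.58 and 13.61 in hSRY-OFF and 13.07, 13.12 and 12.76 in hSRY-ON, so that all 3 hSRY-ON values were below the tightly grouped controls. The difference was -0.62 ± 0.13 (-0.93 to -0.30), or 1.53-fold lower.

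**Figure D1:**
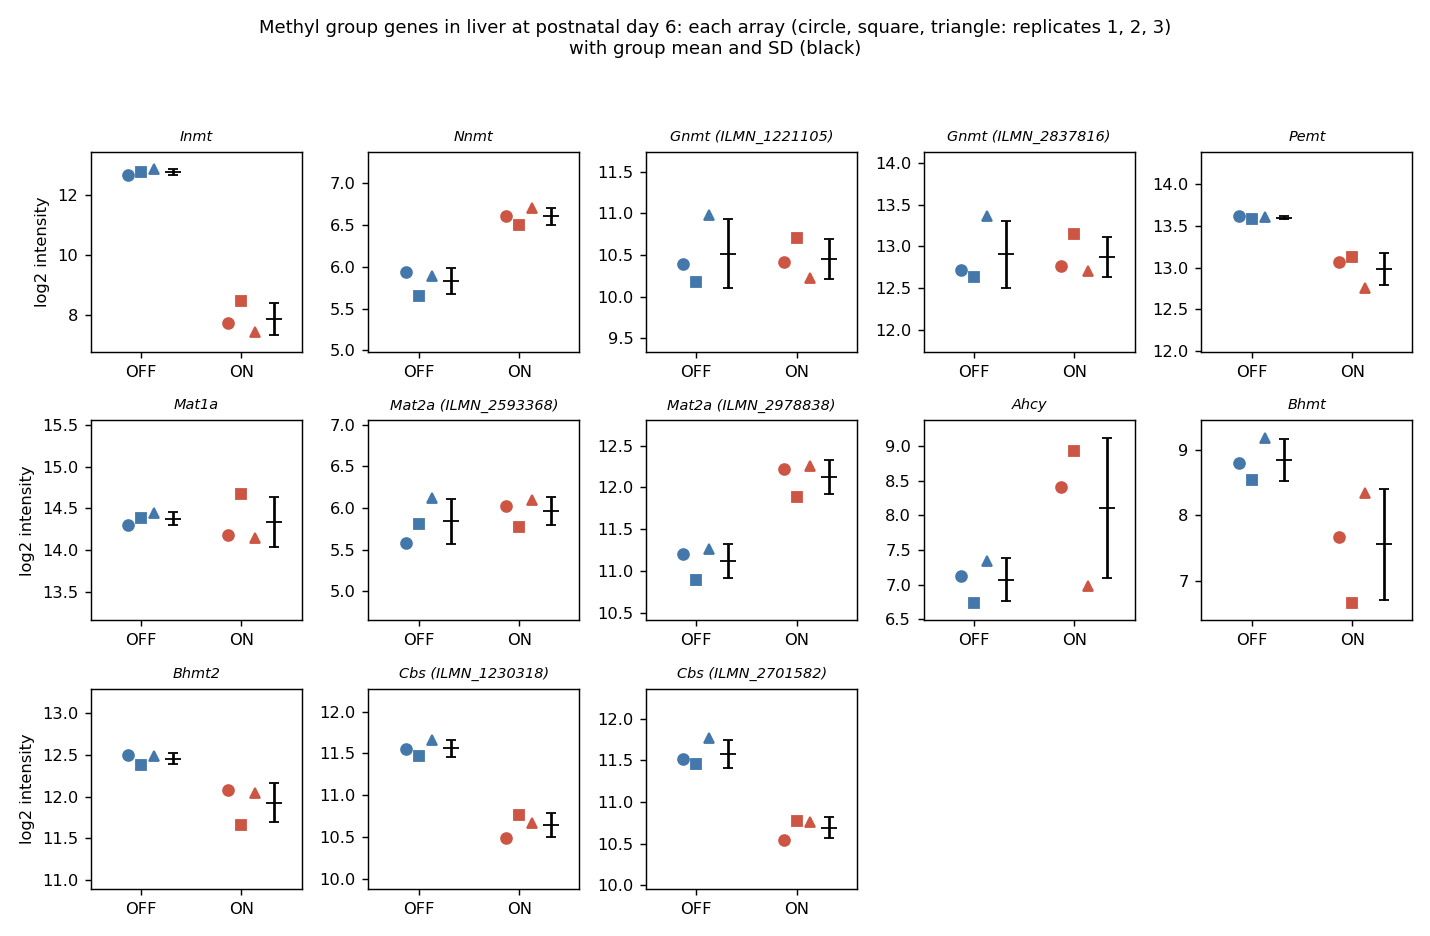
Normalised log2 intensity (vertical axis, scaled separately in each panel) of the 13 tested probes in the 3 hSRY-OFF (blue) and 3 hSRY-ON (red) livers, with the group mean and SD in black. The groups are apart for *Inmt* (12.78 against 7.86), *Nnmt*, *Pemt*, 1 *Mat2a* probe, *Bhmt*, *Bhmt2* and both *Cbs* probes, and overlap for *Gnmt*, *Mat1a*, the other *Mat2a* probe and *Ahcy*.

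SAM itself is made by methionine adenosyltransferases, of which *Mat1a* encodes the adult liver form and *Mat2a* the form of fetal liver, dividing cells and other tissues. *Mat1a* read 14.30, 14.39 and 14.45 in hSRY-OFF and 14.18, 14.68 and 14.15 in hSRY-ON. The hSRY-ON values fell on both sides of the controls, and the difference was -0.04 ± 0.17 (95% interval -0.43 to 0.35). *Mat2a* had 2 tested probes. Probe ILMN_2978838 read 11.21, 10.89 and 11.26 in hSRY-OFF and 12.22, 11.89 and 12.26 in hSRY-ON, so every hSRY-ON liver was above every control, with a difference of 1.0 ± 0.16 (0.63 to 1.38) or 2.01-fold. Probe ILMN_2593368 lay near background, passing the detection threshold in 2 hSRY-OFF and 3 hSRY-ON livers, and read 5.58, 5.81 and 6.12 against 6.03, 5.78 and 6.10. Its groups overlapped (difference 0.13 ± 0.17, -0.28 to 0.53), and with 2 further *Mat2a* probes undetected, the higher *Mat2a* signal rests on 1 of 4 probes.

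*Ahcy* encodes S-adenosylhomocysteine hydrolase, which removes the product of every SAM-dependent methylation. It read 7.12, 6.73 and 7.35 in hSRY-OFF and 8.41, 8.93 and 6.98 in hSRY-ON. Replicates 1 and 2 of hSRY-ON were above all controls, whereas hSRY-ON replicate 3 lay inside the control range, so the SD in hSRY-ON was 1.01 against 0.31 in hSRY-OFF. The difference of 1.04 ± 0.46 had a 95% interval from -0.05 to 2.12, and without hSRY-ON replicate 3 it was 1.61, past the threshold of the fit.

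Remethylation of homocysteine without folate is carried out by *Bhmt*, which takes the methyl group from betaine. Its neighbour *Bhmt2* takes the methyl group from S-methylmethionine. The genes lie 18.3 kb apart on chromosome 13. *Bhmt* read 8.79, 8.55 and 9.19 in hSRY-OFF and 7.67, 6.66 and 8.34 in hSRY-ON, and *Bhmt2* read 12.50, 12.38 and 12.49 against 12.07, 11.66 and 12.05. Both were lower in all 3 hSRY-ON livers, and in both hSRY-ON replicate 2 was the lowest. The differences were -1.29 ± 0.40 (95% interval -2.22 to -0.35) or 2.44-fold for *Bhmt* and -0.53 ± 0.15 (-0.87 to -0.19) or 1.44-fold for *Bhmt2*. Neither stayed past the threshold when any 1 hSRY-OFF array was left out, or without hSRY-ON replicate 2, where the differences were -0.84 and -0.39, and *Bhmt* did not without hSRY-ON replicate 1 either.

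Homocysteine leaves the cycle through *Cbs*, cystathionine beta-synthase, the first enzyme of transsulfuration. Its probes read 11.55, 11.47 and 11.67 in hSRY-OFF against 10.49, 10.77 and 10.67 in hSRY-ON, and 11.51, 11.46 and 11.77 against 10.54, 10.77 and 10.75. The separate probes gave nearly the same picture, with no overlap and differences of -0.92 ± 0.13 (95% interval -1.22 to -0.62) and -0.89 ± 0.14 (-1.21 to -0.57), or 1.89-fold and 1.85-fold lower.

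**Figure D2:**
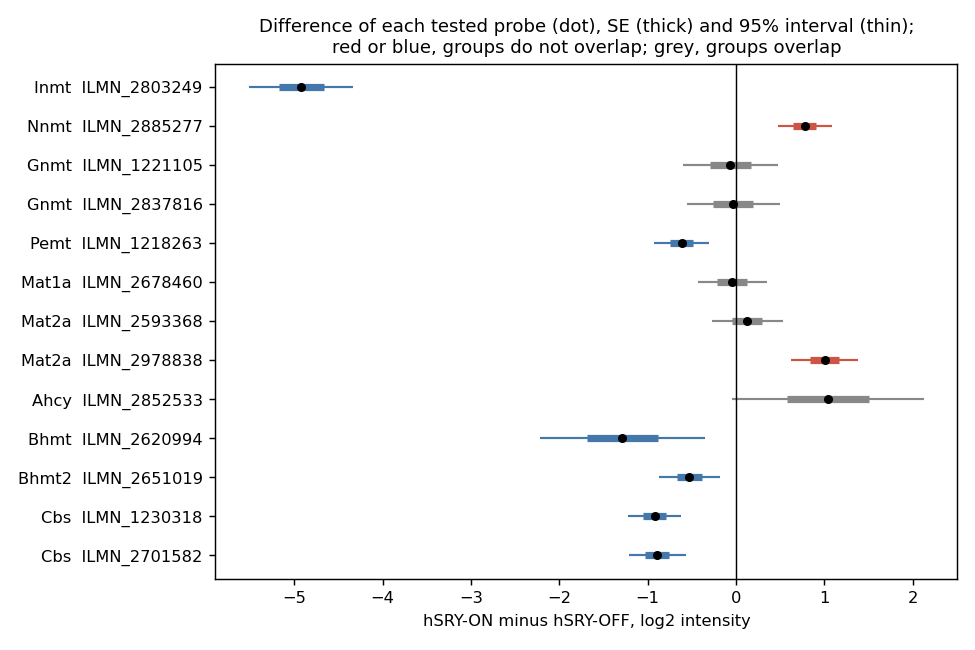
Difference between hSRY-ON and hSRY-OFF (horizontal axis, log2 intensity) for the 13 tested probes, with the SE of the limma fit (thick) and the 95% interval (thin). Probes whose groups did not overlap are red (2 above) or blue (6 below) and the 5 whose groups overlapped are grey; *Inmt* lies at -4.92 and the others between -1.29 and 1.04.

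Side by side, 8 of the 13 tested probes (61.5%) passed the threshold of an adjusted p of 0.05 in the limma fit over all probes, 2 higher and 6 lower, against 33.1% of all tested probes (15.8% higher and 17.3% lower). The same 8 had groups without overlap, 2 above and 6 below, against 25.4% and 24.6% of all tested probes. Because the genes were chosen with this comparison known, nothing is read from the difference between those shares. The median difference of the 13 probes was -0.06, against 0.02 over all tested probes, and it was -0.05 without *Inmt*. Taken as 1 value per gene, the mean of its tested probes, the median was -0.29. Leaving out hSRY-OFF replicate 1 left 5 of the 8, *Pemt*, *Bhmt* and *Bhmt2* being the ones lost. Leaving out hSRY-ON replicate 3 turned the median of the 13 probes to 0.05.

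Single livers moved over several of these genes at once. hSRY-OFF replicate 3 was above the mean of its group at all 13 probes (median deviation 0.14), and hSRY-OFF replicate 2 below it at 12 (median -0.12). In hSRY-ON, replicate 2 was the highest or the lowest of its group at all 13 probes. It was the highest for *Inmt*, *Gnmt*, *Mat1a*, *Ahcy*, *Pemt* and *Cbs* and the lowest for *Bhmt*, *Bhmt2*, *Mat2a* and *Nnmt*. Its median absolute deviation over the 13 probes was 0.26, against 0.14 over all tested probes of that array. Within groups, the median SD of the 13 probes was 0.17 in hSRY-OFF and 0.23 in hSRY-ON, and that of all probes 0.14 and 0.21.

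The genes whose profile over the 6 arrays lay nearest to that of *Inmt*, by the root mean square distance of log2 values centred on their own mean, were *Keg1* (0.42), *AU018778* (now *Ces1f*, a carboxylesterase, 0.43), *Cyp2g1* (0.47), *D630003M21Rik* (0.50) and *Cyp4f14* (0.53). *Keg1*, a glycine N-acyltransferase-like gene, read 11.65, 11.56 and 11.62 in hSRY-OFF and 7.12, 6.99 and 7.19 in hSRY-ON, a difference of -4.51. It was detected on every array, as *Inmt* was. None of the hSRY-ON arrays detected *AU018778*, *Cyp2g1* or *D630003M21Rik* (0 of 3), so they were at least 13.8-fold, 12-fold and 14.1-fold lower there. *Cyp4f14*, an oxidase of the cytochrome P450 family active in fatty acid and eicosanoid oxidation, differed by -3.95 on the log2 scale and was detected on 1 hSRY-ON array. For these 4 genes (*AU018778* to *Cyp4f14*) the distance, and so the rank, rests wholly or partly on hSRY-ON values under the detection floor. Ranked by Pearson correlation instead, the nearest 5 were *Proz*, *Acsm5*, *Cga*, *Gsta3* and *Gltpd2*, none of which is among the first 5 (0 shared), *Proz* having a difference of only -1.26.

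**Figure D3:**
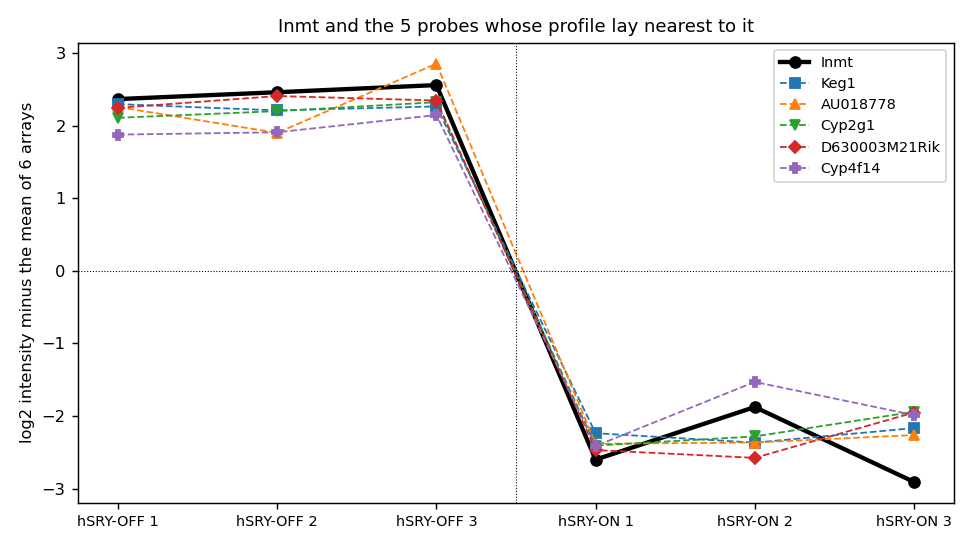
Log2 intensity of *Inmt* and of the 5 probes nearest to it, each after subtraction of its own mean over the 6 arrays (vertical axis), for each liver (horizontal axis; lines only join the values of a probe). All 6 profiles step down between hSRY-OFF and hSRY-ON, and their order among the 3 hSRY-ON livers differs, *Inmt* being highest in replicate 2 and *Keg1* lowest there.

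The other genes of these pathways were taken from lists by role, 126 genes in 8 lists, of which 114 were on the array with 200 probes. Of the 132 probes tested, 58 (43.9%) passed the threshold, 18 higher and 40 lower, with a median difference of -0.04, beside 33.1% of all tested probes, 15.8% higher and 17.3% lower. That share was 28.6% for SAM supply, 57.1% for methionine salvage and polyamines, 54.8% for folate, 38.9% for choline and betaine, 63.6% for transsulfuration, 8.33% for other small-molecule methyltransferases, 26.9% for macromolecule methyltransferases and 65.0% for NAD, so the lists of SAM supply and of both kinds of methyltransferase had no more calls than the background. The lists were made by role, but with earlier results of these data known. Many of the genes named below are the largest changes of their list. The shares and p-values are therefore a description, and no support is drawn from them. All p-values that follow are limma's, adjusted by the Benjamini-Hochberg method over all 10734 tested probes.

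**Figure D4:**
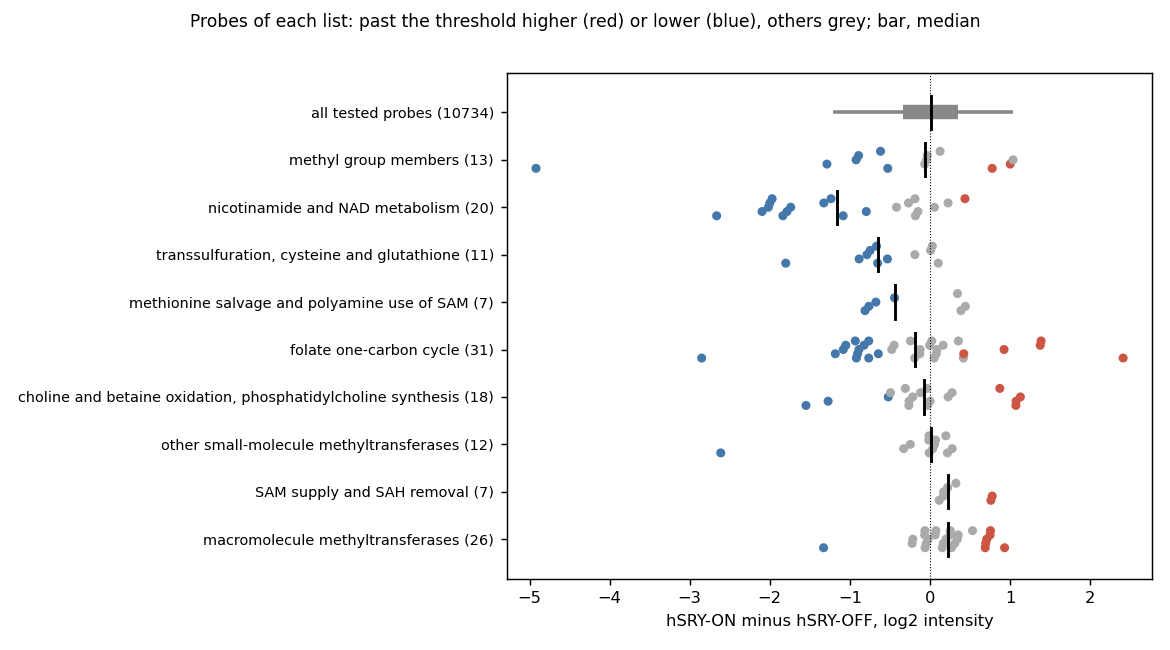
Differences between hSRY-ON and hSRY-OFF (horizontal axis, log2 intensity) of the 13 methyl group probes and of the tested probes of each of the 8 lists (number in brackets), red where higher and blue where lower past the threshold and grey otherwise, with the median as a bar; for all 10734 tested probes the thick bar spans the interquartile range (25th to 75th percentile) and the thin line the 5th to 95th percentile. Medians over probes run from -1.16 for nicotinamide and NAD metabolism to 0.23 for macromolecule methyltransferases, against 0.02 over all tested probes. The lowest leans on repeated probes of *Afmid* and *Naprt*.

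Around SAM synthesis, 2 of 7 tested probes rose and none fell (0), with a median of 0.22. *Mat2b*, the regulatory subunit that pairs with the *Mat2a* product, rose at 1 probe by 0.76 ± 0.19 (adjusted p = 0.0196), while its other tested probe differed by 0.32 (adjusted p = 0.0994). *Ahcyl1*, a relative of *Ahcy* that binds the inositol trisphosphate receptor, rose by 0.78 ± 0.22 (adjusted p = 0.031). Neither rise held in every fit with 1 array left out, the count being 0 when hSRY-OFF replicate 1 or 2 or hSRY-ON replicate 1 or 2 was left out. Among 12 probes of other small-molecule methyltransferases only 1 passed the threshold, that of *Gamt*, which makes creatine and is a large consumer of SAM. *Gamt* read 12.81, 13.04 and 12.86 in hSRY-OFF and 9.63, 10.70 and 10.55 in hSRY-ON, and it fell by 2.61 ± 0.27 on the log2 scale (adjusted p = 0.000758). The other 11 probes of that list lay between -0.33 and 0.28. The list of methionine salvage and polyamine synthesis had 4 of 7 probes lower and none higher (median -0.44). The 4 belong to salvage enzymes, *Mtap*, *Adi1* and *Apip*, and the other 3 to *Srm*, spermidine synthase, which lay at 0.34 to 0.44 without passing the threshold. *Mtap* differed by -0.81 ± 0.18 (adjusted p = 0.0131) and *Adi1* by -0.76 ± 0.12 (adjusted p = 0.00382). That count was between 1 and 4 with single arrays left out, and 1 without hSRY-OFF replicate 1 or 2.

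On the betaine and choline side, 3 of 18 probes fell and 4, from 2 genes, rose (median -0.08). *Slc6a12*, a betaine transporter, fell by 1.27 ± 0.14 (adjusted p = 0.000975). *Sardh*, the mitochondrial enzyme that demethylates the sarcosine formed by *Gnmt*, fell by 1.55 ± 0.12 (adjusted p = 0.000247), from 8.21, 8.39 and 8.36 to 6.78, 6.67 and 6.86. *Chdh*, which makes betaine from choline, differed by 0.23 and 0.28 at its tested probes (adjusted p = 0.186 and 0.129), and *Dmgdh*, the enzyme before *Sardh*, by -0.31 (adjusted p = 0.384). In phosphatidylcholine synthesis from choline, the route beside *Pemt*, members moved in both directions. *Chkb*, choline kinase beta, rose by 1.07 ± 0.14 (adjusted p = 0.00164). *Chpt1*, choline phosphotransferase, rose by 1.13 ± 0.25 (adjusted p = 0.0134) at the probe with its largest rise, a call lost without hSRY-OFF replicate 1. Its other tested probes rose by 1.08 (adjusted p = 0.004) and 0.87 (adjusted p = 0.0365). *Cept1*, which catalyses the same last step as *Chpt1* and is named after its values were seen, fell by 0.52 ± 0.14 (adjusted p = 0.0261), a call lost without hSRY-OFF replicate 2 or 3 or hSRY-ON replicate 1. *Chka* (-0.03 and -0.04) and *Pcyt1a* (-0.26) of the same route did not pass the threshold.

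In the folate cycle, which supplies methyl groups for the other route of homocysteine remethylation, 12 of 31 probes fell and 5 rose, with a median of -0.19. *Slc19a1*, the reduced folate carrier, rose most, from 7.35, 7.05 and 7.54 to 10.06, 10.03 and 9.09 (2.41 ± 0.28, adjusted p = 0.00106). *Folr2*, a folate receptor typical of tissue macrophages, fell most, from 8.40, 8.65 and 8.12 to 5.20, 5.26 and 6.15 (-2.85 ± 0.27, adjusted p = 0.000525). It was detected on 1 hSRY-ON array, and with the other 2 at their detection floor the difference was -2.55. The cytosolic serine hydroxymethyltransferase *Shmt1* fell by 1.18 ± 0.13 (adjusted p = 0.00077). Its mitochondrial counterpart *Shmt2* rose at 1 probe by 0.93 ± 0.14 (adjusted p = 0.00342) and differed by 0.08 at the other (adjusted p = 0.757), and *Mthfd2*, a mitochondrial dehydrogenase of the same route, rose by 1.39 ± 0.27 (adjusted p = 0.00813). The remaining probes that rose, named after their values were seen, were those of *Slc25a32*, the mitochondrial folate transporter (1.38, adjusted p = 0.0383), and *Atic*, a purine synthesis enzyme (0.42, adjusted p = 0.0249). Both calls were lost with any 1 hSRY-OFF array or hSRY-ON replicate 1 left out, that of *Atic* also without hSRY-ON replicate 2, and the other tested *Atic* probes differed by 0.42 (adjusted p = 0.0667) and -0.24 (adjusted p = 0.461). Of 12 Kupffer cell and macrophage probes, 4 fell and 1 rose, a share of 41.7% beside 33.1% of all tested probes. Their summed intensity was 13831 to 17217 in hSRY-OFF and 10975 to 13610 in hSRY-ON. The part of these cells in the *Folr2* difference was not tested.

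Downstream of *Cbs*, 7 of 11 probes of transsulfuration, cysteine and glutathione metabolism fell and none rose (0), with a median of -0.65. *Suox*, sulfite oxidase, fell by 1.80 ± 0.24 (adjusted p = 0.00186), *Tst*, a thiosulfate sulfurtransferase, by 0.88 ± 0.15 (adjusted p = 0.00508) and *Csad*, of taurine synthesis, by 0.79 ± 0.17 (adjusted p = 0.0134). *Cdo1*, cysteine dioxygenase, differed by 0.10 (adjusted p = 0.664). *Cth*, the enzyme that follows *Cbs*, differed by 0.03 (adjusted p = 0.958) at a probe that was above background in 1 hSRY-OFF and 2 hSRY-ON livers, so little could be seen there. Without hSRY-OFF replicate 1 the list had 4 probes past the threshold, and *Csad* was not among them.

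Nicotinamide, the substrate of *Nnmt*, belongs to NAD metabolism. Over probes its list had the lowest median, -1.16, with 12 of 20 probes lower and 1 higher. These 12 came from only 4 of 10 tested genes, since *Afmid* had 7 probes and *Naprt* 3. The median, its rank and the share past the threshold therefore lean on repeated probes of these genes. Among other genes of the list, *Kynu* fell by 0.79, while *Nadk* (-0.19), *Qprt* (-0.18), *Nadsyn1* (-0.27 to 0.06) and *Nmnat3* (0.23) did not pass the threshold. *Haao*, of NAD synthesis from tryptophan, fell by 2.66 ± 0.31 (adjusted p = 0.00106), from 12.09 ± 0.15 to 9.43 ± 0.66 (SD, n = 3 each). *Afmid*, formamidase of the same route, fell by 2.10 ± 0.14 (adjusted p = 0.00015). *Sirt1*, an NAD-consuming deacetylase, rose by 0.44 ± 0.13 (adjusted p = 0.0399), a call that was lost with any 1 array left out except hSRY-ON replicate 3. *Aox3*, an aldehyde oxidase, differed by -0.42 (adjusted p = 0.296), and *Nampt* was detected on no array (0 of 6). Among methyltransferases of DNA, RNA and protein, 6 of 26 probes, from 4 genes, rose and 1 fell (median 0.23). The probe that fell was that of *Dnmt3b*, a de novo DNA methyltransferase, by 1.33 ± 0.21 (adjusted p = 0.00394), while the RNA methyltransferases *Nop2* (listed as *Nol1*) and *Nsun2* rose by 0.76 ± 0.12 and 0.93 ± 0.22 (adjusted p = 0.0041 and 0.0178). With any 1 hSRY-OFF array left out, 4 probes of that list were past the threshold, without *Nsun2*.

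**Figure D5:**
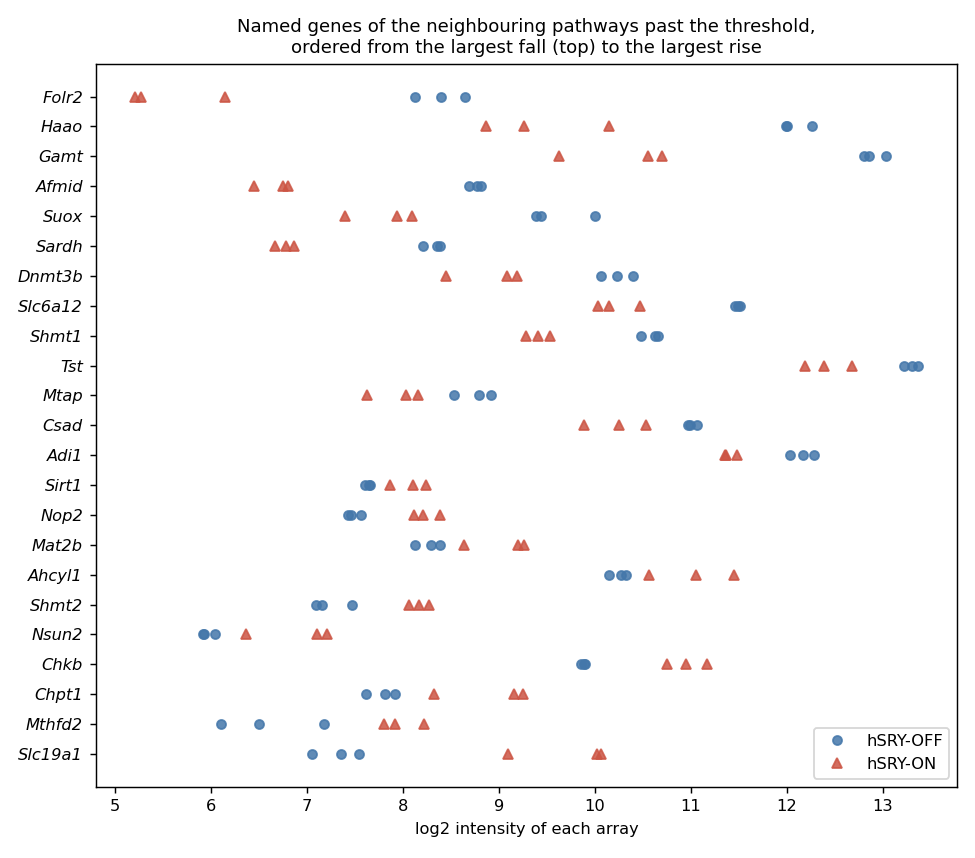
Normalised log2 intensity (horizontal axis) of the named pathway genes past the threshold in each of the 3 hSRY-OFF (blue circles) and 3 hSRY-ON (red triangles) livers, ordered by their difference. *Folr2* is at the top with -2.85 and *Slc19a1* at the bottom with 2.41. The groups of every gene shown are apart, which the rule for naming required of those named as the largest changes of their list.

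Markers of liver cell types moved with these results in places. Pericentral hepatocytes, around the central vein, are distinct in amino acid and drug metabolism. Of 13 probes for their markers 8 were tested, 7 lower and 1, *Oat*, higher in hSRY-ON. Over all tested probes 17.3% were lower and 15.8% higher. The probes of *Lgr5*, *Rgn* and *Tbx3* and 1 of *Slc1a2* were detected on all 3 hSRY-OFF arrays and no hSRY-ON array. They passed the filter through the group where they were high, so the filter itself tilts the count to lower. The summed intensity of the 8 was 18182 to 22947 in hSRY-OFF, most of it from *Cyp2e1* (mean log2 14.11, and 11.28 in hSRY-ON). In hSRY-ON it was 6629 to 12687, with *Oat*, the marker that rose, as the largest part (12.56, and 11.33 in hSRY-OFF). The sums therefore follow these genes and not the whole set. *Glul* and *Lect2* were not detected. *Lgr5*, *Rgn* and *Tbx3* were at background in all 3 hSRY-ON livers. The part of pericentral markers in the lower *Inmt*, *Gamt* or *Cbs* signals was not tested. Periportal markers had 2 of 6 probes lower, both of *Gls2*, and none higher, a share of 33.3% beside 33.1% of all tested probes. Their sums were 17607 to 27104 in hSRY-OFF and 18740 to 27448 in hSRY-ON. The general hepatocyte markers had 4 of 9 probes (44.4%) past the threshold, all lower, those of *Alb*, *Ttr* and *Serpina1a* (2 probes). In whole liver RNA, fewer cells of a type and less RNA per cell cannot be told apart.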

How the data were processed

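Total liver RNA from 6 male FVB/N (labelled FVB) pups at postnatal day 6, 3 per group by the labels, was hybridised by the authors to single-colour bead arrays. The deposited table gave per array the mean bead intensity of 25697 probes, neither background-subtracted nor normalized, and a detection p-value set against the negative control beads. No column lacked a sample (0). Scanner software and genome build are not given in the sources used here. The methods name TCC, a count package, which was not applied to intensities; the submitters' processing notes name limma. Backgrounds were removed with nec (offset 16) of limma 3.58.1 (R 4.3.3), and intensities were then quantile-normalized and taken to log2. Probes that 3 or more of the 6 arrays detected at p under 0.01 (10734 probes, 8225 symbols) were tested with lmFit and eBayes without covariates, and two-sided p-values were adjusted by the Benjamini-Hochberg method, with 0.05 as the threshold. The offset holds down differences of dim probes. With 3 arrays per group, their number limits the precision.

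The members and lists were chosen with earlier results of these data known. Named were all members, 15 pathway genes whatever their values (not all are reported here), within each list the 2 largest rises and 2 largest falls past the threshold without overlap of the groups, and the 5 profiles nearest to *Inmt*. Where a group detected a probe on no array, the mean of the brighter group was set against the higher of the detection floor and the signal on each dim array ("at least N-fold"). Gene names outside the table came from RefSeq GRCm38.p6. The fit was tested on simulated data. Alternatives covered background correction, scaling, filters, the variance model, array weights, the replicate number as a block and leaving out each array.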

Additional observations from a re-analysis of the deposited data

How the results depend on the processing

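Of the 8 methyl group probes past the threshold, 5 (*Inmt*, *Nnmt*, 1 *Mat2a* probe and both *Cbs* probes) stayed past it in each of the 18 other fits that tested them (the fit on probes detected on all 6 arrays drops *Nnmt*), 3 (*Pemt*, *Bhmt* and *Bhmt2*) lost it in at least 1, and none changed sign (0). The *Inmt* difference ranged from -5.21 to -4.31. The count of members past the threshold lay between 5 and 9 with 1 array left out, and the median of the member probes between -0.23 and 0.05. Median scaling put that median at -0.24 and cyclic loess at -0.17, against -0.04 and 0.0025 over all tested probes. Restricted to probes detected on all 6 arrays, the member median was -0.53, since the filter drops dim probes. Over all tested probes 2034 to 4060 were past the threshold with 1 array left out, lowest without hSRY-OFF replicate 1 and next without hSRY-OFF replicate 2 (2166), against 3554. The wider lists had 39 to 59 with 1 array left out and 36 without the moderation of variances across probes, against 58. Of 31 other named probes past the threshold, 6 of which that fit also drops, 20 stayed so in each fit that tested them and 11 did not (*Ahcyl1*, *Atic*, *Cept1*, *Chpt1*, *Csad*, *Mat2b*, *Mtap*, *Mthfd2*, *Nsun2*, *Sirt1* and *Slc25a32*). Median scaling gave 1204 higher and 1768 lower probes in place of 1700 and 1854. The genes nearest to *Inmt* shared none of 5 (0) when ranked by Pearson correlation. Deviations of same-numbered arrays correlated at 0.0248, 0.0955 and 0.0523, and those of differently numbered arrays at -0.17 to 0.133. Deviations from a mean of 3 arrays are tied to each other, so these values cannot decide whether replicate numbers pair the samples. With the number as a block 3210 probes were past the threshold, 55 of the wider lists and the same 8 of the members. Probes near the detection floor, such as those of *Nnmt* and *Cth*, limit what could be seen of those genes.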

Other observations

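Lists of markers of other liver cells gave these counts among their tested probes. Over all tested probes 33.1% passed the threshold, 15.8% higher and 17.3% lower. For stellate cells 2 of 9 probes were lower and 1 higher (summed normalised intensity 11857 to 13833 in hSRY-OFF and 9425 to 11137 in hSRY-ON), and for sinusoidal endothelial cells 1 of 10 was lower and 4 higher (10478 to 12857 and 9797 to 12381). Of the erythroid probes, 1 of 9 was higher and none lower (73327 to 95994 and 95894 to 112718). The erythroid probe of *Hba-a1* read 15.50 on every array (log2, SD 0 in both groups). Quantile normalization gives a probe of the same rank on each array the same value, so this probe says little about erythroid content. It also adds the same amount to every erythroid sum, which holds down the relative difference between the groups. Neutrophil markers had none of 10 past the threshold (0 by limma with Benjamini-Hochberg adjustment), with sums of 47851 to 54914 and 31660 to 95029. The upper end in hSRY-ON was replicate 3, the highest of its group at each of these probes (*S100a9* 13.61 against 11.42 and 11.57 in replicates 1 and 2). The 1 cholangiocyte probe tested did not pass the threshold, and 3 of 5 lymphocyte probes were lower (1089 to 1220 and 353 to 888). The part of these cells in the values above was not tested.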
